A study of Drosophila melanogaster with 9 samples.

Results

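The 9 chorion protein genes Cp7Fa, Cp7Fb, Cp7Fc, Cp36, Cp38, Cp15, Cp16, Cp18 and Cp19 were measured in 9 RNA-seq libraries of Drosophila melanogaster ovaries. They were chosen by name as the chorion genes of the amplified clusters on the X and the third chromosome. No measured value was a criterion, but earlier results of these data were known at the time. Each symbol matched 1 of the 17558 gene identifiers counted. All 9 passed the filter on low counts that left 8642 genes for testing.

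The series compared 3 genotypes of Moe, the gene for the actin-binding protein Moesin, with 3 libraries each. Mutant females carried moe[G0415] over moe[NES]. NES heterozygotes carried moe[NES] over w[1118]. Null heterozygotes carried moe[G0415], the allele that the labels call null, over w[1118]. Ovaries came from 3-day-old females kept at 25 degrees C, and the labels' protocols give 10 females per genotype in 3 replicates, without saying whether each replicate had its own 10. Every group carried at least 1 altered moe allele, so none is a wild type, and how either allele was made is not given in the sources used here. No label tells whether the replicates of a genotype are independent crosses, and a p-value here reflects the scatter of these libraries alone, which may be technical.

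The eggshell of the fly is secreted by the follicle cells, the somatic epithelium around each growing egg chamber, during the last stages of oogenesis. The vitelline membrane is laid down first, and the chorion is built over it. Chorion proteins are needed in large amounts within hours, and follicle cells first multiply the gene copies: replication origins in the chorion clusters fire again and again at a time when most of the genome is no longer replicated. Within the program, Cp36 and Cp38 are transcribed early, and the cluster on the third chromosome is transcribed later.

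On the BDGP6.54 annotation the X cluster spans 12424 bases, from position 8470888 to 8483311 of chromosome X, and holds Cp7Fa, Cp7Fb, Cp7Fc, Cp36 and Cp38 in that order. The cluster on chromosome arm 3L spans 5809 bases, from 8726791 to 8732599, and holds Cp18, Cp15, Cp19 and Cp16. All 9 genes lie on the plus strand. No exon of another annotated gene overlaps theirs, although the whole X cluster lies inside CG33223 on the opposite strand. Their exons cover 515 bases in Cp15 to 2093 bases in Cp7Fb.

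Libraries held 31.8 to 43.6 M counts (M, 1e6). The chorion genes took 2.66%, 1.77% and 2.35% of all counts in mutant replicates 1, 2 and 3. They took 1.44%, 2.58% and 2.15% in NES heterozygote replicates 1 to 3, and 0.490%, 2.04% and 0.629% in null heterozygote replicates 1 to 3. With 175550 counts or more on these genes in every library, counting error was small: the exact 95% binomial interval of the lowest share ran from 0.487% to 0.492%. The share was thus lowest in null heterozygote replicates 1 and 3, below the 7 other libraries and below replicate 2 of their own genotype. The same pair lay at 1 end of the first principal component over all genes, which held 46.1% of the variance. In RNA from whole ovaries, fewer late follicle cells and less chorion RNA per cell cannot be told apart. Moe itself had 385 to 440 CPM (counts per 1e6 counts) in mutant, 619 to 769 CPM in NES heterozygote and 356 to 439 CPM in null heterozygote libraries, a count that does not tell the alleles apart.

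Levels below are CPM after scaling by the trimmed mean of M values (TMM). Cp38, an early chorion protein gene and the member with the most reads, had 8720, 5242 and 8039 CPM in mutant replicates 1 to 3. It had 4871, 9094 and 6185 CPM in NES heterozygotes and 1395, 8024 and 1721 CPM in null heterozygotes. By mean CPM it was rank 3 of all genes in the mutant, 3 in the NES heterozygote and 9 in the null heterozygote. Cp36, the other early gene, lies next to it. It had 4183, 2871 and 4207 CPM in mutants, 2750 CPM, 4843 CPM and 3218 CPM in NES heterozygotes, and 787, 4289 and 978 CPM in null heterozygotes. For both early genes null heterozygote replicate 2 lay among the other genotypes and replicates 1 and 3 lay far below every other library.

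The 3 Cp7F genes lie upstream of Cp36 in the X cluster and are less abundant. Cp7Fa had 385, 250.1 and 442 CPM in mutants, 205, 377 and 362 CPM in NES heterozygotes, and 53.6, 432 and 95.8 CPM in null heterozygotes. Cp7Fb had 835, 389.6 and 702 CPM in mutants, 349.6, 718 and 539 CPM in NES heterozygotes, and 126, 791 and 127 CPM in null heterozygotes. Cp7Fc had 895, 428 and 738 CPM in mutants, 379.7, 807 and 497 CPM in NES heterozygotes, and 144, 824 and 157 CPM in null heterozygotes. These 3 genes followed the same order of libraries as the early genes at the low end, and all 3 genotypes overlapped.

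Among the later genes, Cp15 had 4990, 3994 and 3902 CPM in mutants. It had 2750, 4510 and 5410 CPM in NES heterozygotes and 1051, 2370 and 1707 CPM in null heterozygotes. All 3 null heterozygote libraries, replicate 2 included, lay below the 6 others, which set Cp15 apart from the 8 other members. Cp18 had 2816, 1827 and 2059 CPM in mutants, 979, 2244 and 2041 CPM in NES heterozygotes, and 405, 1445 and 461 CPM in null heterozygotes. Cp19 had 3064, 1995 and 2868 CPM in mutants, 1395, 2983 and 2496 CPM in NES heterozygotes, and 471, 2077 and 539 CPM in null heterozygotes. Cp16 had 1237, 828 and 1020 CPM in mutants, 502, 1059 and 885 CPM in NES heterozygotes, and 195, 742 and 229 CPM in null heterozygotes. For Cp16 and Cp18 the mutant libraries lay above all 3 null heterozygote libraries, and for Cp19 they overlapped through mutant replicate 2 and null heterozygote replicate 2.

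**Figure D1:**
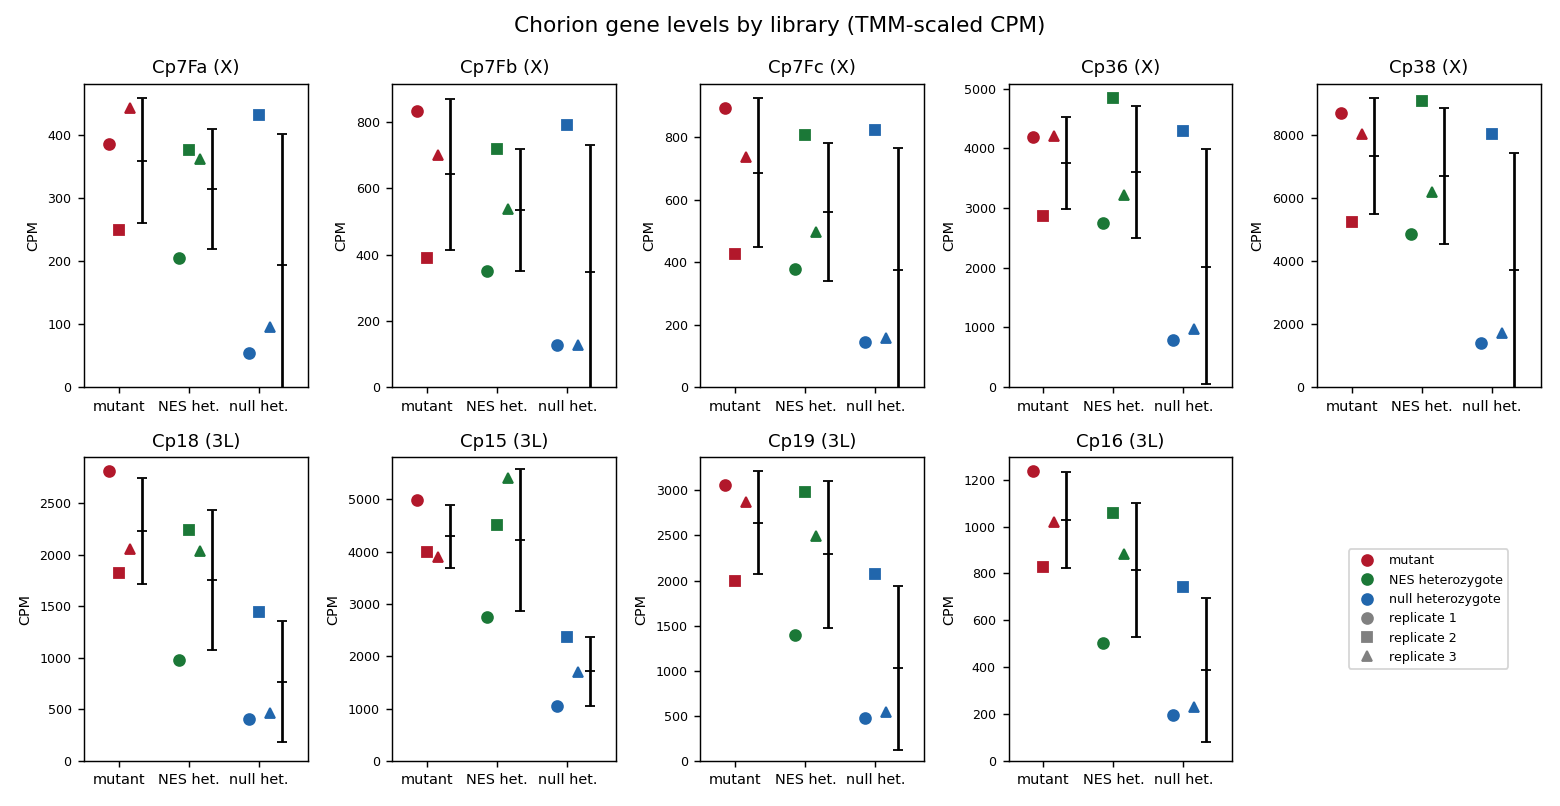
TMM-scaled CPM of each of the 9 chorion genes, 1 panel a gene with its own axis from 0; points are libraries, with the colour giving the genotype and the shape the replicate, and black ticks with bars are the mean and SD over 3 libraries, cut at 0. In the null heterozygote, replicate 2 stands well above replicates 1 and 3 in every panel except Cp15, where the 3 libraries lie at 1051, 2370 and 1707 CPM.

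All 9 members had their lowest level in null heterozygote replicate 1 and their next lowest in replicate 3. The highest level was in mutant replicate 1 for 5 members, in NES heterozygote replicate 2 for Cp36 and Cp38, in mutant replicate 3 for Cp7Fa and in NES heterozygote replicate 3 for Cp15. From the lowest to the highest library the range was 5.15-fold for Cp15 and 8.25-fold for Cp7Fa, with the 7 others between. The spread inside a genotype was wide: the SD of log2 CPM had a median over members of 0.33 in mutants, 0.52 in NES heterozygotes and 1.33 in null heterozygotes. Over all 8642 genes the median SD was 0.11, 0.13 and 0.20 in the same genotypes.

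Per kilobase of exon, the scale on which genes can be set against each other, Cp15 was the most abundant member. It had 8340 ± 1171 CPM per kb in mutants, 8201 ± 2627 CPM per kb in NES heterozygotes and 3319 ± 1280 CPM per kb in null heterozygotes (SD, n = 3 each). Over the 9 libraries the mean level was 6620 CPM per kb for Cp15, 4741 for Cp38, 3053 for Cp19, 2800.4 for Cp36, 2444 for Cp18 and 1426 for Cp16. The Cp7F genes followed at a distance, with mean levels of 478 CPM per kb for Cp7Fc, 244 for Cp7Fa and 243 for Cp7Fb. Length here pools the exons of all annotated transcripts of a gene, 2093 bases over 2 transcripts in Cp7Fb. Which transcript was expressed was not determined, so ranks on this scale depend on the annotation. Cp15 exceeded Cp38 in 8 of 9 libraries, and Cp38 exceeded Cp19 in 9 of 9. Cp19 and Cp36 held their order in 6 of 9 libraries, Cp36 and Cp18 in 6 of 9, and Cp7Fa and Cp7Fb in 5 of 9, so these neighbours in the order did not differ beyond their spread.

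Mutant and null heterozygote ovaries were compared first, which asks what the moe[NES] chromosome does in place of w[1118] beside moe[G0415]. Each of the 9 members had a positive log2 fold change, and none passed the threshold of 0.05 on adjusted p in edgeR's quasi-likelihood test. Over all genes tested, 1.25% were called, 0.822% higher and 0.428% lower in the mutant. The members' median log2 fold change was 0.98, with a range of 0.87 to 1.54, and the median of all genes was 0.00. Adjusted p ran from 0.106 to 0.469 in the same edgeR fit.

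With all libraries in the fit, the 3L genes, transcribed late, had log2 fold changes of 1.33 to 1.54 and the X cluster genes of 0.87 to 0.98. That order rested on null heterozygote replicate 2: without it the X cluster genes had 2.09 to 2.34, Cp15 had 1.64 and the other 3L genes had 2.28 to 2.38. Cp18 averaged 2234 ± 517 CPM in mutants and 770.3 ± 585 CPM in null heterozygotes (SD, n = 3 each). Its log2 fold change was 1.54 (SE 0.51, 95% interval 0.37 to 2.71, edgeR adjusted p = 0.209). Cp15 averaged 4295 ± 603 CPM in mutants and 1709 ± 659 CPM in null heterozygotes, a log2 fold change of 1.33 (SE 0.32, interval 0.60 to 2.06, edgeR adjusted p = 0.106). Its smaller SE went with the smallest spread of any member within both genotypes. Cp16 had a log2 fold change of 1.40 (SE 0.51, edgeR adjusted p = 0.236) and Cp19 one of 1.36 (SE 0.56, edgeR adjusted p = 0.276). These 4 genes were also those with an unadjusted p under 0.05.

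Of the X cluster genes, Cp38 averaged 7333 ± 1843 CPM in mutants and 3713 ± 3736 CPM in null heterozygotes (SD, n = 3 each), a log2 fold change of 0.98 (SE 0.62, interval -0.43 to 2.39, edgeR adjusted p = 0.394). The log2 fold change was 0.90 for Cp36, 0.89 for Cp7Fa, 0.89 for Cp7Fb and 0.87 for Cp7Fc. The median was 0.89 in the X cluster and 1.38 in the 3L cluster, with the dependence on null heterozygote replicate 2 given above. The 2 genotypes did not overlap for 3 members, Cp15, Cp16 and Cp18, while 18.4% of all genes tested did not overlap.

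These calls turned on single libraries. Without null heterozygote replicate 2, all 9 members were called higher in mutants, with log2 fold changes of 1.64 to 2.38 and 3679 genes called in all. With null heterozygote replicates 1 and 3 both left out, the 5 X cluster genes had log2 fold changes of -0.31 to -0.14. Those of the 4 genes of the 3L cluster stayed positive, up to 0.85. DESeq2's Wald test called 1 member, Cp15, with an adjusted p of 0.000746. It called 552 genes in all, where edgeR called 108.

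Mutant and NES heterozygote ovaries were compared next, a pair that shares moe[NES] and differs in moe[G0415] against w[1118]. None of the 9 members was called, and none had an unadjusted p under 0.05. Over all genes tested, 0.972% were called, 0.579% higher and 0.393% lower in the mutant. The log2 fold changes were small and positive, from 0.02 to 0.35 with a median of 0.21, beside a median of 0.00 over all genes. For Cp15 the log2 fold change was 0.02 (SE 0.32, 95% interval -0.69 to 0.74, edgeR adjusted p = 0.975). For Cp18 it was 0.35 (SE 0.50, interval -0.80 to 1.49, edgeR adjusted p = 0.757). For Cp38 the interval ran from -1.27 to 1.53, so differences of more than 2-fold in either direction were not excluded for it at this spread. The 2 genotypes overlapped for all 9 members, while 24.9% of all genes tested did not overlap. Leaving out NES heterozygote replicate 1, the lowest of its genotype for each member, gave a median log2 fold change of -0.04.

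NES heterozygote and null heterozygote ovaries carry different moe alleles over the same w[1118] chromosome. The comparison shares its null heterozygote libraries with the first one. None of the 9 members was called by edgeR's quasi-likelihood test, while 0.833% of all genes tested were called, 0.44% higher and 0.393% lower in the NES heterozygote. All 9 log2 fold changes were positive, with a median of 0.86 and a range of 0.58 to 1.31. Cp15 averaged 4224 ± 1353 CPM in NES heterozygotes and 1709 ± 659 CPM in null heterozygotes (SD, n = 3 each), a log2 fold change of 1.31 (SE 0.32, interval 0.57 to 2.04, edgeR adjusted p = 0.131). Cp18 had a log2 fold change of 1.19 (SE 0.51, interval 0.03 to 2.35, edgeR adjusted p = 0.498), and it and Cp15 were the members with an unadjusted p under 0.05. Cp15 was the 1 member whose 2 genotypes did not overlap, a state that 13.3% of all genes tested shared. The median log2 fold change was 0.70 in the X cluster and 1.17 in the 3L cluster with all libraries in the fit.

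The same libraries decided these calls. Without null heterozygote replicate 2 all 9 members were called higher in NES heterozygotes, with log2 fold changes of 1.90 to 2.11 in the X cluster, 1.61 for Cp15 and 1.94 to 2.18 for the other 3L genes. Over all genes, leaving out each replicate in turn called up to 741 in this comparison, against 72 with all libraries. With null heterozygote replicates 1 and 3 left out, the X cluster genes had log2 fold changes of -0.57 to -0.26. Those of the 4 genes of the 3L cluster stayed positive, up to 0.82. DESeq2's Wald test called Cp15 alone of the members, with an adjusted p of 0.00120. It called 341 genes in all, where edgeR called 72.

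**Figure D2:**
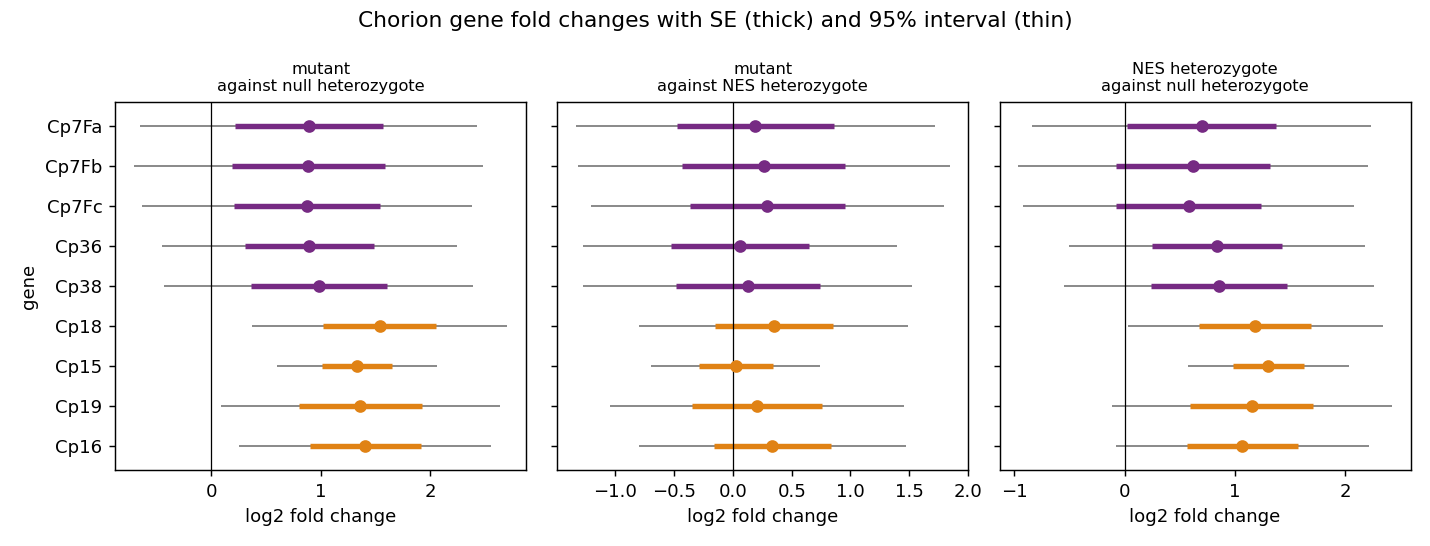
Log2 fold change of each chorion gene in the 3 comparisons, from the fit across all genes; thick bars are the SE, thin bars 95% intervals, and the vertical line marks no difference. All 27 estimates lie right of it, and the intervals that do not cross it are those of Cp15, Cp16, Cp18 and Cp19 in mutant against null heterozygote and of Cp15 and Cp18 in NES heterozygote against null heterozygote; none is called after adjustment.

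The clusters were then set against each other inside each library, where the scaling factor cancels. The X cluster summed to 15018, 9180 and 14128 CPM in mutants, and the 3L cluster to 12106, 8643 and 9849 CPM. In NES heterozygotes the X cluster summed to 8555, 15838 and 10801 CPM and the 3L cluster to 5626, 10795 and 10832 CPM. In null heterozygotes the X cluster summed to 2507, 14360.1 and 3078 CPM and the 3L cluster to 2122, 6634 and 2936 CPM. These sums of reads cover 5 genes against 4 and do not account for length. Per kb of exon the order turned: the X cluster sum was 0.461 to 0.707 times the 3L sum in 8 of 9 libraries and 1.03 times in null heterozygote replicate 2.

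The ratio of summed CPM of the X to the 3L cluster was 1.24, 1.06 and 1.43 in mutants, 1.52, 1.47 and 0.997 in NES heterozygotes, and 1.18, 2.16 and 1.05 in null heterozygotes. On the log2 scale it averaged 0.31 ± 0.22 in mutants, 0.38 ± 0.34 in NES heterozygotes and 0.47 ± 0.56 in null heterozygotes (SD, n = 3 each). The difference was -0.17 for mutant minus null heterozygote (pooled SD 0.43), -0.08 for mutant minus NES heterozygote (pooled SD 0.28) and -0.09 for NES heterozygote minus null heterozygote (pooled SD 0.46). Each is smaller than its SD, and the genotypes overlapped in every pair. Without null heterozygote replicate 2 the difference was 0.15 for mutant minus null heterozygote and 0.23 for NES heterozygote minus null heterozygote.

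The highest ratio of any library belonged to null heterozygote replicate 2, the chorion-rich library of its genotype. There the X cluster genes were 5.45-fold (Cp36) to 8.06-fold (Cp7Fa) above null heterozygote replicate 1, and the 3L genes were 2.25-fold (Cp15) to 4.41-fold (Cp19) above it. Against null heterozygote replicate 3 the range was 4.38-fold to 6.23-fold in the X cluster and 1.39-fold (Cp15) to 3.85-fold (Cp19) in the 3L cluster. In that library 4 of 5 X cluster genes lay within the mutant range and Cp36 slightly above it, while Cp15, Cp16 and Cp18 lay below the mutant range.

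Early members, Cp36 and Cp38, were also set against the 4 later members of the 3L cluster. The Cp7F genes were left out, since no time was assigned to them. The early to late ratio was 1.07, 0.939 and 1.24 in mutants, 1.35, 1.29 and 0.868 in NES heterozygotes, and 1.03, 1.86 and 0.919 in null heterozygotes. On the log2 scale the difference was -0.17 for mutant minus null heterozygote (pooled SD 0.41), -0.10 for mutant minus NES heterozygote (pooled SD 0.29) and -0.07 for NES heterozygote minus null heterozygote (pooled SD 0.46). None exceeded the spread between replicates. Since early and late members lie on different chromosomes, time and cluster cannot be told apart here.

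**Figure D3:**
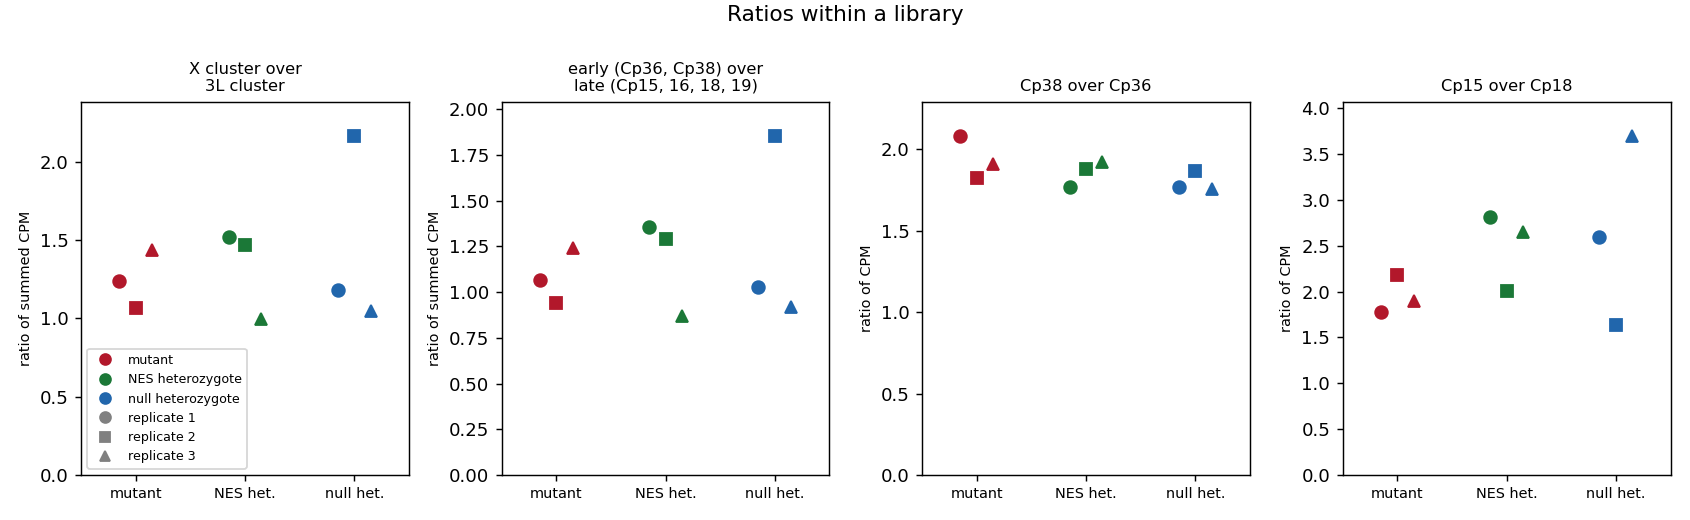
Per library, the ratio of the X to the 3L cluster, of early to late chorion genes, of Cp38 to Cp36 and of Cp15 to Cp18, each a ratio of CPM on an axis from 0; points are libraries, with the colour giving the genotype and the shape the replicate. Null heterozygote replicate 2 is the highest library in the first pair of panels, at 2.16 and 1.86, and the lowest in the Cp15 to Cp18 panel, at 1.64.

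Among the 36 pairs of members, Cp36 and Cp38 kept the steadiest proportion, with an SD of the log2 ratio of 0.08 over the 9 libraries. Cp38 had 2.08, 1.83 and 1.91 times the CPM of Cp36 in mutants, 1.77, 1.88 and 1.92 times in NES heterozygotes, and 1.77, 1.87 and 1.76 times in null heterozygotes. Over the 9 libraries the SD of the log2 ratio of 2 members had a median of 0.21 for the 10 pairs inside the X cluster, 0.27 for the 6 pairs inside the 3L cluster and 0.33 for the 20 pairs with 1 gene in each. The pairs share libraries and genes, so these values are a description.

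The 3L cluster itself fell into 2 patterns. The 3 pairs among Cp16, Cp18 and Cp19 had an SD of 0.09 to 0.16, and the 3 pairs with Cp15 had one of 0.38 to 0.44. Cp15 had 1.77, 2.19 and 1.89 times the CPM of Cp18 in mutants, 2.81, 2.01 and 2.65 times in NES heterozygotes, and 2.60, 1.64 and 3.70 times in null heterozygotes. The ratio of Cp18 to Cp16 stayed between 1.95 and 2.31 in all 9 libraries. Cp15, which lies between Cp18 and Cp19, thus varied less across libraries than either neighbour, and its share of the cluster was highest in the chorion-poor null heterozygote replicate 3.

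**Figure D4:**
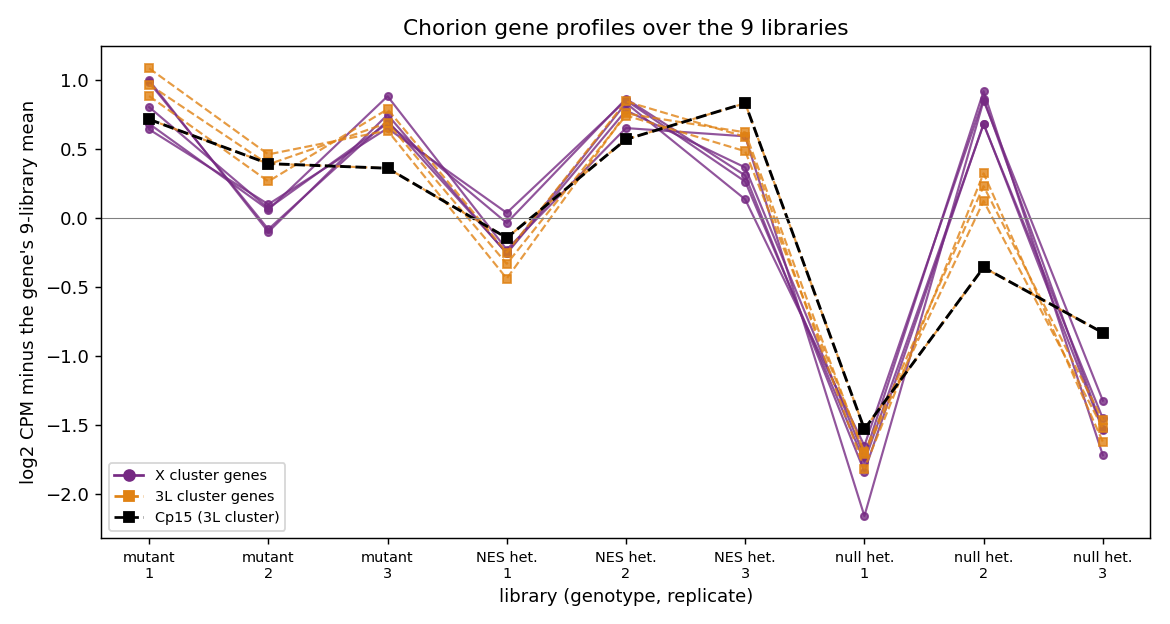
Log2 CPM of the members across the 9 libraries, each centred on its own mean, with X cluster genes as solid lines, 3L cluster genes as dashed lines and Cp15 in black. All lines are lowest in null heterozygote replicates 1 and 3, and Cp15 departs from the 3 other dashed lines, at -0.36 in null heterozygote replicate 2 and -0.83 in replicate 3.

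Genes outside the family with the same profile were found by the root mean square difference between centred log2 CPM over the 9 libraries, among 6297 genes with a mean of at least 10 CPM. Nearest to the mean X cluster profile were CG14834 (0.11), CG32645 (0.11), Cad74A (0.12), drd (0.13) and CG43394 (0.13). Their mean levels were 28.2 to 219 CPM, and Cad74A encodes a cadherin of the follicle cells. The X cluster genes themselves lay 0.06 (Cp38) to 0.18 (Cp7Fa) from that profile. For both clusters the profile is the mean of its own members, which lowers their distances. The outside genes were picked as the nearest of 6297, so the distances are not like for like. Nearest to the 3L profile were CG16956 (0.14), Mur2B (0.14), CG13083 (0.17), Tusp (0.17) and Mur11Da (0.17). Mur2B and Mur11Da are named as mucin-related proteins and had means of 405 and 63.5 CPM. Cp16 lay 0.09, Cp18 0.10, Cp19 0.15 and Cp15 0.28 from the 3L profile, so the 5 genes named were closer to it than Cp15 was.

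The genes around the clusters, which lie near the amplified origins, were read for the same pattern. Of 13 annotated genes next to or over the clusters, 10 could be tested and 0 were called in any comparison. CG6511, 683 bases before Cp18, had 52.8 to 67.7 CPM over the 9 libraries, a 1.28-fold range. otu, a germline gene 1697 bases beyond Cp38, had 522 to 721 CPM, a 1.38-fold range. Prm, which encodes the muscle protein paramyosin, lies on the opposite strand with its 3′ end 259 bases beyond Cp16 and had 9.83 to 25.8 CPM, a 2.62-fold range. The members' own ranges were 5.15-fold or more.

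At low levels, the nearest gene on either side of the X cluster did vary with the members. CG12116, 1876 bases before Cp7Fa, had 6.15, 4.41 and 5.97 CPM in mutants, 2.87, 6.63 and 4.98 CPM in NES heterozygotes, and 1.45, 8.27 and 2.0 CPM in null heterozygotes. The noncoding RNA gene lncRNA:CR43834, 883 bases beyond Cp38, had 2.10, 1.59 and 1.73 CPM in mutants, 1.04, 2.31 and 1.52 CPM in NES heterozygotes, and 0.343, 2.24 and 0.304 CPM in null heterozygotes. Both had their 2 lowest libraries in null heterozygote replicates 1 and 3, as the chorion genes did. CG33223, which spans the X cluster, did not: it had 2.58, 3.50 and 2.13 CPM in null heterozygotes. Its lowest library was NES heterozygote replicate 1, at 1.38 CPM. Es2, 7539 bases before Cp7Fa, was lowest in null heterozygote replicate 2, at 26.7 CPM. Whether reads from the far more abundant chorion transcripts reached these counts was not tested.

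Other products of the follicle cells varied with the members. The 8 vitelline membrane genes tested summed to 13028, 7660 and 11350 CPM in mutants, 3743, 11950 and 6188 CPM in NES heterozygotes, and 1323, 13143 and 1484 CPM in null heterozygotes. None of them was called by edgeR in any comparison, and their median log2 fold change was 1.0 in mutant against null heterozygote, 0.51 in mutant against NES heterozygote and 0.46 in NES heterozygote against null heterozygote. The yolk protein genes Yp1, Yp2 and Yp3, which follicle cells also express, summed to 9406, 7206 and 7557 CPM in mutants, 3430 CPM, 7630 CPM and 4844 CPM in NES heterozygotes, and 1519, 8723 and 1747 CPM in null heterozygotes.

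The chorion genes were not a fixed multiple of these earlier products. The chorion to yolk protein ratio averaged 1.50 ± 0.18 on the log2 scale in mutants, 2.0 ± 0.18 in NES heterozygotes and 1.55 ± 0.26 in null heterozygotes (SD, n = 3 each). The difference of mutant minus NES heterozygote was -0.50 (pooled SD 0.18) and that of NES heterozygote minus null heterozygote 0.45 (pooled SD 0.23), and neither pair of genotypes overlapped. The gap was narrow between the heterozygotes, with a lowest NES heterozygote library of 1.80 and a highest null heterozygote library of 1.78. Mutant minus null heterozygote was -0.05 (pooled SD 0.23). The chorion to vitelline membrane ratio averaged 1.12 ± 0.09 in mutants, 1.63 ± 0.41 in NES heterozygotes and 1.50 ± 0.72 in null heterozygotes, and every pair of genotypes overlapped.

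**Figure D5:**
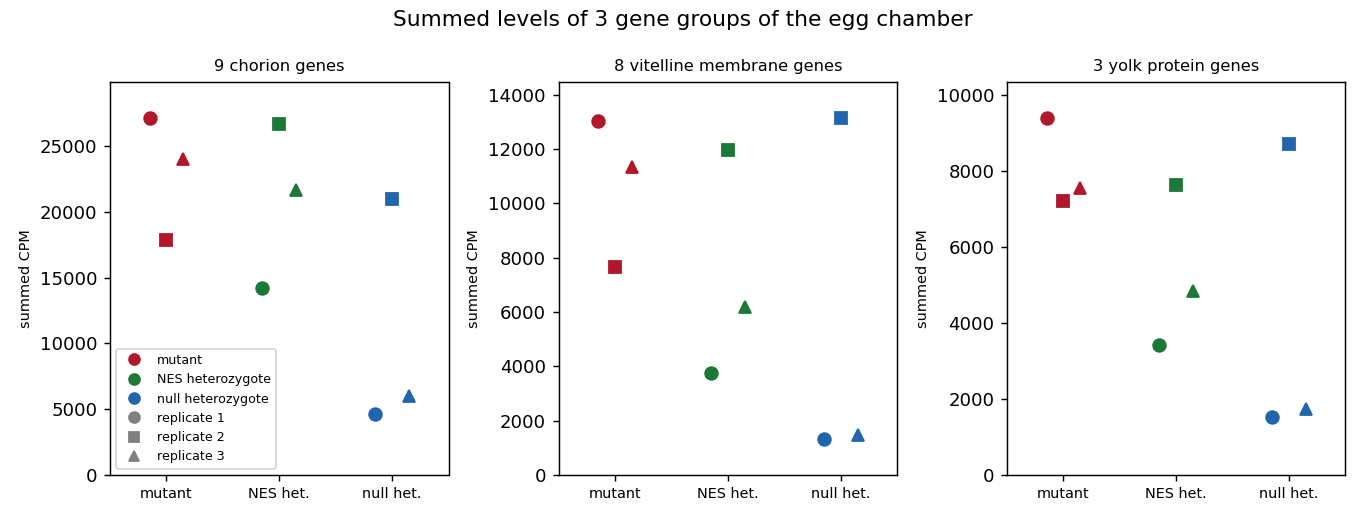
Summed TMM-scaled CPM per library of the 9 chorion genes, of the vitelline membrane genes and of the yolk protein genes Yp1, Yp2 and Yp3, each on an axis from 0; points are libraries, with the colour giving the genotype and the shape the replicate. Null heterozygote replicates 1 and 3 are the lowest libraries in all 3 panels.

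Of 15 other eggshell genes, Muc12Ea, a mucin-like gene, was called higher in mutants than in null heterozygotes, at 137 ± 12.5 CPM in mutants and 45.8 ± 11.6 CPM in null heterozygotes (log2 fold change 1.58, SE 0.25, edgeR adjusted p = 0.0223). Pxd, which encodes a chorion peroxidase of the kind that crosslinks the eggshell, was called lower in mutants in both comparisons. It averaged 0.0489 ± 0.0656 CPM in mutants, 4.39 ± 2.0 CPM in NES heterozygotes and 2.33 ± 1.86 CPM in null heterozygotes, with edgeR adjusted p of 0.0267 against NES heterozygotes and 0.0317 against null heterozygotes. At these levels Pxd is far rarer than any chorion structural gene. The 13 other genes of that list were not called in any comparison, among them dec and Pxt, the 2 with most reads.

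A list drawn up for other sites that follicle cells amplify was read next. Whether each of its genes lies at such a site was not checked, so the values below describe the list. The list shares yellow-g and yellow-g2 with the other eggshell genes above, and Vm34Ca and psd with the vitelline membrane genes. All 8 were tested and 0 were called in any comparison. Their median log2 fold change was 0.99 in mutant against null heterozygote, 0.32 in mutant against NES heterozygote and 0.67 in NES heterozygote against null heterozygote. CG13114 averaged 556 ± 142 CPM in mutants, 467 ± 157 CPM in NES heterozygotes and 278 ± 247 CPM in null heterozygotes. Vm34Ca, also a vitelline membrane gene, had log2 fold changes of 0.98, 0.50 and 0.47 in the 3 comparisons in the same order.

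Genes of replication, its origins and their control were read as a list of 36. It also holds regulators such as E2f1, Rbf and geminin, so its sums and signs do not describe the copying machinery alone. Of its genes, 32 were tested and 0 were called by edgeR in any comparison. They summed to 5121, 5797 and 5546 CPM in mutant replicates 1 to 3, 6876, 5736 and 6494 CPM in NES heterozygotes, and 6736, 4725 and 6520.4 CPM in null heterozygotes. Within each genotype the order of libraries was the reverse of that of the summed chorion genes, and the chorion-rich null heterozygote replicate 2 was the lowest of the 9. Their part in the chorion levels was not tested. In mutant against NES heterozygote 32 of 32 had a negative log2 fold change, with a median of -0.20 and a lowest edgeR adjusted p of 0.324. In mutant against null heterozygote 27 of 32 were negative, with a median of -0.15, and in NES heterozygote against null heterozygote 8 of 32 were negative, with a median of 0.06. Over all genes tested, 50.05% had a positive log2 fold change in mutant against null heterozygote, 50.4% in mutant against NES heterozygote and 49.3% in NES heterozygote against null heterozygote. dup, the Cdt1 homologue that loads the replicative helicase at origins, averaged 221 ± 34.9 CPM in mutants, 327 ± 58.1 CPM in NES heterozygotes and 318 ± 110 CPM in null heterozygotes. PCNA, the polymerase clamp, averaged 380.3 ± 10.0 CPM in mutants, 437 ± 16.9 CPM in NES heterozygotes and 388 ± 44.0 CPM in null heterozygotes. These are RNA levels of whole ovaries, and no DNA copy number was measured.

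Regulators linked to chorion genes in follicle cells were examined last. Of 13 tested, 0 were called in any comparison, and the median log2 fold change was 0.11 in mutant against null heterozygote, 0.09 in mutant against NES heterozygote and 0.10 in NES heterozygote against null heterozygote. In mutant against null heterozygote single genes ran from -0.80 (Hr38) to 1.03 (Eip74EF), with 8 positive and 5 negative. BtbVII averaged 307 ± 7.63 CPM in mutants, 305 ± 9.05 CPM in NES heterozygotes and 285 ± 13.1 CPM in null heterozygotes. ttk, the zinc finger factor Tramtrack, averaged 229 ± 21.0 CPM in mutants, 215 ± 24.7 CPM in NES heterozygotes and 208 ± 41.6 CPM in null heterozygotes.

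Markers of the other cells of the ovary were read beside the members. Summed germline markers, among them osk and otu, had 3064, 2600.1 and 3047 CPM in mutant replicates 1 to 3, 2415, 3038 and 2572 CPM in NES heterozygotes, and 2335, 3156 and 2300.3 CPM in null heterozygotes. Summed follicle cell markers, most of whose reads are yolk protein genes, had 7425 to 9643 CPM in mutants, 3629 to 7858 CPM in NES heterozygotes and 1692 to 8959 CPM in null heterozygotes. Their 2 lowest libraries were the chorion-poor null heterozygote replicates, at 1692 and 1920.0 CPM. None of the 5 germline markers and 7 follicle cell markers tested was called by edgeR in any comparison. Muscle sheath markers summed to 169, 85.2 and 108 CPM in mutants, 55.8, 111 and 87.8 CPM in NES heterozygotes, and 60.9, 122 and 67.8 CPM in null heterozygotes, with 0 of 7 called. Within each genotype the muscle sums followed the library order of the summed chorion genes, and the germline sums did so in mutants and NES heterozygotes, with null heterozygote replicate 2 the highest of its genotype in both lists. What part the make-up of the ovaries had in the chorion levels was not tested.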

How the data were processed

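Ovary RNA was isolated with TRIzol and made into stranded TruSeq mRNA libraries, per the labels' protocols. The authors deposited 9 tables, 1 a library, of raw counts of reads per gene. Tools named in the submitters' processing notes are HISAT2 2.0.4, HTSeq, Trimmomatic 0.36, SAMtools 0.1.19 and FastQC, and the build is BDGP6. Neither the annotation nor how strand and multiply mapped reads were treated is given there. Symbols and coordinates came from the Ensembl annotation of BDGP6.54, which matched 17252 of 17558 identifiers; the other 306 held 5.00% of counts.

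Counts were fitted in R 4.3.3 with edgeR 4.0.16 (limma 3.58.1). The filter was filterByExpr, with a minimum count of 10 and a minimum total of 15, and scaling was by TMM. The quasi-likelihood test had 1 coefficient per genotype over all 9 libraries. Benjamini-Hochberg adjustment ran over 8642 genes, with a threshold of 0.05. The biological coefficient of variation was 20.1%. Standard errors were taken as the size of the log2 fold change over the square root of F, and intervals use the t distribution with 8.56 degrees of freedom. Binomial intervals cover counting error only. Ratios of summed CPM were described without a test. The code was tested on simulated data.

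The members, gene lists and tests were chosen with earlier results of these data known. Named genes are the members, Moe, genes next to the clusters, the 5 nearest profiles per cluster and, per list, genes called or among the 2 with most reads. A few others, such as dup, were named after their values were seen. Alternatives were DESeq2 1.42.0, its size factors, library size alone, TMM without egg chamber genes, a minimum mean of 5 CPM, no filter, only the genotypes compared, a replicate block each replicate left out, and, for the ratios, fewer members or means of logs. No pair of libraries agreed within sampling noise.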

Additional observations from a re-analysis of the deposited data

How the results depend on the processing

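The number of genes called was 108 in mutant against null heterozygote, 84 in mutant against NES heterozygote and 72 in NES heterozygote against null heterozygote. In that order it was 552, 345 and 341 by DESeq2's Wald test, 61, 27 and 33 at a mean of at least 5 CPM, and 51, 145 and 24 with only the genotypes compared. Leaving out each replicate in turn gave 26 to 3679, 28 to 259 and 35 to 741 genes. Among chorion genes, DESeq2 called 1, 0 and 1, and leaving out a replicate gave 0 to 9, 0 to 0 and 0 to 9, the 9 being called without null heterozygote replicate 2. The replicate numbers showed no steady pairing of the libraries: 2 of 9 same-numbered pairs had a correlation over 0.1, with a range of -0.58 to 0.66. With 3 libraries per genotype this check cannot exclude handling shared by number. With the replicate block 59, 34 and 38 genes were called and 0 chorion genes in each comparison.

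Leaving out a replicate moved the chorion median log2 fold change to 0.58 to 2.26, -0.04 to 0.44 and 0.46 to 2.03. In mutant against NES heterozygote it turned the sign of Cp7Fa (-0.0376 to 0.394), Cp36 (-0.102 to 0.329), Cp38 (-0.0576 to 0.405), Cp15 (-0.206 to 0.236) and Cp19 (-0.0505 to 0.439). The X to 3L difference ranged over -0.37 to 0.15, -0.27 to 0.03 and -0.29 to 0.23, and the early to late difference over -0.36 to 0.15, -0.30 to 0.02 and -0.27 to 0.24.

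With null heterozygote replicates 1 and 3 both left out, an alternative chosen after seeing the data in which the remaining library is assumed to vary like the other genotypes, 19 and 32 genes were called in mutant and NES heterozygote against null heterozygote. The chorion median was -0.14 and -0.26, with the 5 X cluster genes negative and the 4 genes of the 3L cluster positive, up to 0.85 and 0.82. The X to 3L difference was -0.81 and -0.73, and the early to late difference -0.79 and -0.69. The log2 fold change was -0.28 and -0.47 for Cp7Fa, -0.31 and -0.57 for Cp7Fb, -0.27 and -0.57 for Cp7Fc, -0.20 and -0.26 for Cp36, and -0.14 and -0.27 for Cp38. The cause was not tested. Under the other scalings, either filter setting, the fit to only the genotypes compared and the replicate block, the chorion medians kept their sign and 0 chorion genes were called. With the Cp7F genes alone as the X cluster, the X to 3L difference of mutant minus NES heterozygote was 0.0430. Depth was not the limit for any member; the spread between libraries was.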

Other observations

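Markers of cells outside the ovary ranged in level. The 4 testis markers summed to 0.0468 to 0.123 CPM in mutants, 0.0562 to 0.0888 CPM in NES heterozygotes and 0 CPM in null heterozygotes. Mst84Da and dj were at 0 in all 9 libraries. None of the 4 passed the filter on low counts, so none was tested, and sums this small rest on a few reads. Hemocyte markers summed to 8.52 to 10.4 CPM in mutants, 0.983 to 5.48 CPM in NES heterozygotes and 2.35 to 4.90 CPM in null heterozygotes, nearly all of it Ppn, with 0 of 2 called. Digestive tract markers summed to 0.846 to 8.69 CPM in mutants, 0.641 to 1.04 CPM in NES heterozygotes and 0.552 to 1.69 CPM in null heterozygotes, with 0 of 2 called. Fat body markers summed to 17.8 to 51.9 CPM in mutants, 31.9 to 43.2 CPM in NES heterozygotes and 28.8 to 55.1 CPM in null heterozygotes, most of it apolpp. Fbp2, another fat body marker, was called higher in mutants than in NES heterozygotes (edgeR adjusted p = 0.0351). It averaged 0.534 ± 0.272 CPM in mutants, 0.00936 ± 0.0162 CPM in NES heterozygotes and 0.255 ± 0.0628 CPM in null heterozygotes (SD, n = 3 each). Its count was 0 in 2 of the 9 libraries. In that comparison apolpp, the other fat body marker tested, had a log2 fold change of -0.11 (SE 0.38).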
